A study of Mus musculus with 4 samples.

Results

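NKX2.2 summits that lie at the boundaries of noncoding genes, and not at those of protein-coding genes, numbered 381 of the 7380 summits placed on chromosomes 1 to 19 and X, a share of 5.16% (95% Wilson interval 4.68% to 5.69%). The summit marks where enrichment within a peak was greatest. It was counted here when it lay within 1 kb of either end of a RefSeq gene whose biotype is not protein coding and over 1 kb from every end of a protein-coding gene. Another 299 summits lay within 1 kb of a noncoding boundary and of a protein-coding boundary at once, and they are not part of the 381.

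The series has 4 samples of wild-type alphaTC6 cells, a mouse line derived from pancreatic alpha cells, which secrete glucagon. They are 2 biological replicates of NKX2.2 chromatin immunoprecipitation (ChIP), enriched on magnetic beads, and 2 of input DNA. Libraries came from the Tecan Ovation Ultralow System V2 kit, and the labels name no treatment. The authors' peak list holds 7384 summits for the whole series and 1 score per peak, taken as −log10 of the q-value of ChIP against input, and no value per library. Sequencing depth and the agreement of the replicates are therefore unknown, and no test over samples could be made. Intervals cover counting error only. The alpha cell identity of the line cannot be checked from a list of binding sites, and the list covers no other cells.

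NKX2.2 is a homeodomain transcription factor that endocrine cells of the pancreas need for their identity, and its family binds DNA through a core of the letters AAGTG. Noncoding genes make RNA that is not translated. Long noncoding RNAs (lncRNAs) are made by RNA polymerase II, often from promoters that also fire in the other direction into a protein-coding gene. tRNA genes are read by RNA polymerase III, small nuclear RNA (snRNA) genes by polymerase II or III, microRNA (miRNA) hairpins are cut from longer transcripts, and most pseudogenes are copies of genes that are no longer read as such.

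The promoters of 3 lncRNA genes are printed first because NKX2 cores lie close to their summits. Each is the RefSeq window of GRCm38.p6, from 250 bases before to 50 after a gene start, 5′ to 3′ on the gene's strand, and capitals mark AAGTG or its reverse complement CACTT. They were chosen after their values were seen. Among windows with such summits, cores were no more frequent than among all lncRNA windows, as given below. The window of Bcas3os2, an opposite-strand gene inside Bcas3, is chr11:85775631-85775930 on the minus strand, with its summit of score 42.1 at base 164 and the nearest core 6 bp away. The window of Gm34307 is chr13:59145786-59146085 on the minus strand, with its summit of score 88.4 at base 269 and a core 15 bp away. The window of A930006K02Rik is chr16:91464854-91465153 on the plus strand, with its summit of score 66.8 at base 207 and the nearest core 33 bp away.
Bcas3os2: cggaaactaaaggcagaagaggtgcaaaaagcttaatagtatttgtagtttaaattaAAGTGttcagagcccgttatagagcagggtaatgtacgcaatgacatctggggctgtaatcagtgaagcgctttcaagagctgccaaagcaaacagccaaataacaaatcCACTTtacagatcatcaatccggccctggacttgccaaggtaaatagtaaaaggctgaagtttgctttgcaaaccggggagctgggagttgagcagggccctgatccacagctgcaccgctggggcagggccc
Gm34307: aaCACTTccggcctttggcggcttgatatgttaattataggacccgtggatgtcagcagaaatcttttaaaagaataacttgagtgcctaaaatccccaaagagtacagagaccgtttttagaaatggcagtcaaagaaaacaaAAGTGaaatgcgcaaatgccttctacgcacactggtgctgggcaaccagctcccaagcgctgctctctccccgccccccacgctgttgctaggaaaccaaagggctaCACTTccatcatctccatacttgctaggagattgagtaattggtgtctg
A930006K02Rik: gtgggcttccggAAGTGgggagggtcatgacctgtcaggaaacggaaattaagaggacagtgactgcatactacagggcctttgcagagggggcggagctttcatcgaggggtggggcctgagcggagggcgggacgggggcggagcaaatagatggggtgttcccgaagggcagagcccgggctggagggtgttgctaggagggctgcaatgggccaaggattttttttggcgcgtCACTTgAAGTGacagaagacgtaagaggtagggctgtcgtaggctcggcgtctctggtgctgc

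A further pair of windows is printed to show the range of CpG content among the summits at lncRNA starts, with each CpG in capitals. The window of Gm40716 (chr10:80475331-80475630, minus strand; summit score 105.4) has 42 CpG and no NKX2 core. The window of Gm3693 (chr12:81228034-81228333, plus strand; summit score 78.6) has 2 CpG and 1 NKX2 core, 77 bp from the summit.
Gm40716: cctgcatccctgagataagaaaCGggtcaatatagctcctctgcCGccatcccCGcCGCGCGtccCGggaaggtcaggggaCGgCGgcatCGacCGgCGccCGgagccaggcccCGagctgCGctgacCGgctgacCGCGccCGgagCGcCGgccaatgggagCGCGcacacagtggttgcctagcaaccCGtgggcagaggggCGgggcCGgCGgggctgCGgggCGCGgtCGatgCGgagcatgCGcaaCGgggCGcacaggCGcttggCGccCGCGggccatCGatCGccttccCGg
Gm3693: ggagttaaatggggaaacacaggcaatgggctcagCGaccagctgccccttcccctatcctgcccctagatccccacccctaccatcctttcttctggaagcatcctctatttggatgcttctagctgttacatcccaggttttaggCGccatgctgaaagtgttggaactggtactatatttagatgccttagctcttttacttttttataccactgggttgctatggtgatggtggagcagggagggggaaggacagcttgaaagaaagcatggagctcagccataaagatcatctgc

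Most of the 381 summits lay at lncRNA genes. The nearest noncoding gene was a lncRNA for 310 of them, 81.4% (Wilson interval 77.1% to 85.0%). Pseudogenes followed with 27 summits (7.09%), miRNAs with 14 (3.67%), snRNAs with 13 (3.41%) and tRNAs with 12 (3.15%). The rest were 2 snoRNA, 2 transcribed pseudogene and 1 miscellaneous RNA summits. In 362 cases a single noncoding gene lay within 1 kb, in 16 cases 2 and in 3 cases 3. Together the summits touched 395 of 27923 noncoding genes, 1.41%. With every placed summit counted, those near protein-coding boundaries too, 701 noncoding genes (2.51%) had one within 1 kb, against 6.45% of genes of any biotype and 11.5% of protein-coding genes.

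Counts of summits depend on how much sequence each biotype covers, so summits were also expressed per megabase (Mb) of sequence over 1 kb from protein-coding boundaries. The 381 summits lay in 83.8 Mb, or 4.55 per Mb (exact 95% Poisson interval 4.10 to 5.03). Sequence over 1 kb from every gene boundary held 4844 summits in 2450 Mb, or 1.98 per Mb (interval 1.92 to 2.03), so the density at noncoding boundaries was 2.30 times as high. The intervals did not overlap. Mappability and assembly gaps were not taken into account. The same held inside and outside protein-coding gene bodies. Inside them the density at noncoding boundaries was 6.41 per Mb (interval 5.38 to 7.57), against 2.87 away from boundaries, and outside them 3.90 per Mb (interval 3.43 to 4.42), against 1.40.

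The biotypes differed in density. Boundaries of lncRNA genes, nearest or not, had 316 summits at 7.06 per Mb (interval 6.30 to 7.88), which is 3.57 times the density away from boundaries. Boundaries of tRNA genes had the highest density, 19.9 per Mb, but it rests on 12 summits (interval 10.3 to 34.7). Some of these 12 also lay within 1 kb of a lncRNA boundary and are counted for both biotypes. Those of miRNA genes had 7.22 per Mb (interval 3.95 to 12.1) and those of snRNA genes 6.84 (interval 3.74 to 11.5). Pseudogene boundaries were lower than sequence away from boundaries, with 27 summits in 29.2 Mb, or 0.926 per Mb (interval 0.610 to 1.35). For snoRNA genes, 3 summits gave 1.19 per Mb with an interval of 0.245 to 3.47, which includes the density away from boundaries.

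**Figure D1:**
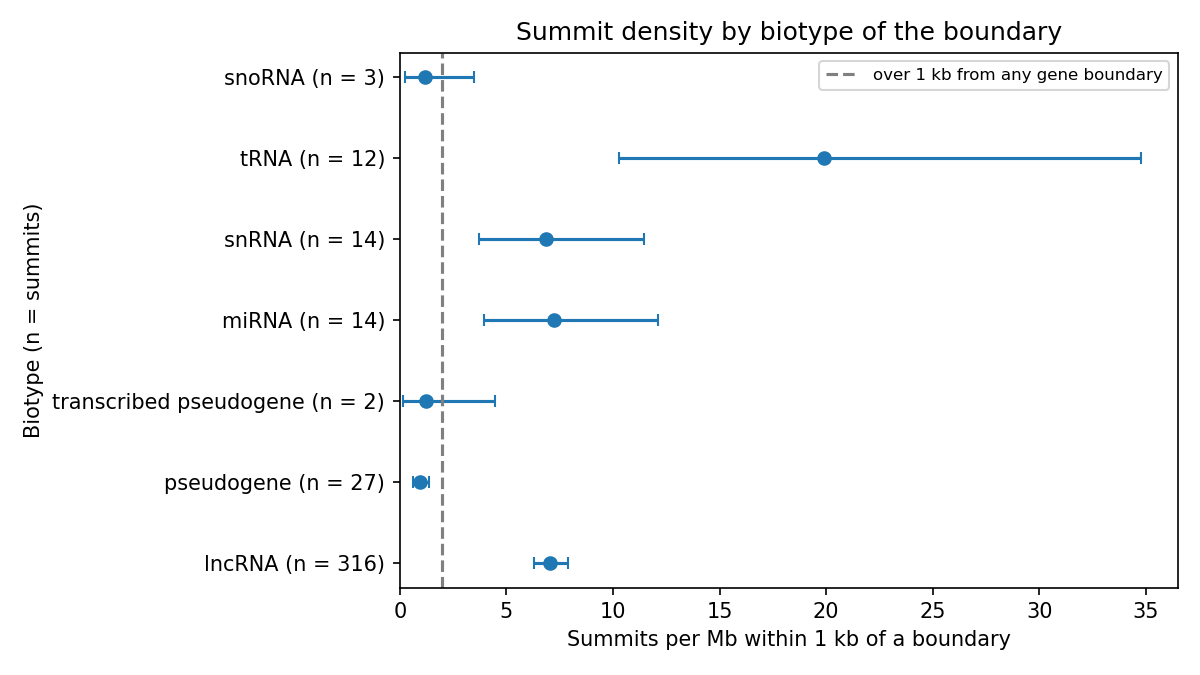
Summits per Mb of sequence within 1 kb of a boundary (horizontal axis) for 7 noncoding biotypes, with exact 95% Poisson intervals; the dashed line is the density over 1 kb from any gene boundary, 1.98 per Mb. The lncRNA, miRNA, snRNA and tRNA intervals lie above the line, the pseudogene interval lies below it, and those of snoRNA and transcribed pseudogenes include it.

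Counted per gene, tRNA genes again came first of the biotypes listed here, while miRNA genes came after lncRNA and snRNA genes. The Wilson interval of tRNA genes, 2.43% to 6.27%, overlapped that of lncRNA genes, 2.25% to 2.80%. Those of snRNA and miRNA genes overlapped too, so these orders are uncertain. A summit of the 381 lay at 319 of 12697 lncRNA genes (2.51%), 16 of 408 tRNA genes (3.92%), 14 of 1003 snRNA genes (1.40%), 13 of 1228 miRNA genes (1.06%), 26 of 9852 pseudogenes (0.264%) and 3 of 1340 snoRNA genes (0.224%). With summits near protein-coding boundaries included, the shares were 4.46% of lncRNA genes and 6.13% of tRNA genes. None of the 394 V segment genes of immune receptors had a summit within 1 kb. That allows a share of up to 0.761%, taken as 3 divided by the number of genes, or 0.966% by the Wilson interval. Of the 310 lncRNA summits, 16 (5.16%) had a nearest gene with a given name, 223 (71.9%) a predicted Gm gene and 65 (21.0%) a Riken clone. Of all lncRNA genes, 3.95% had a given name, 79.6% were Gm genes and 14.1% Riken clones.

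At lncRNA genes the summits lay mainly at the start. Strand was known for 250 of the 310, and 192 of them, 76.8% (Wilson interval 71.2% to 81.6%), were nearer to the start than to the end. Within 100 bp of the boundary 45 of 47 were at a start, and from 250 bp to 1 kb 94 of 142 were, 66.2%. Of the 192, 108 lay upstream of the start and 84 inside the gene. Of summits at protein-coding boundaries with known strand, 94.1% were at a start (Wilson interval 92.9% to 95.1%), a higher share with no overlap of the intervals. The lncRNA share leaves out summits within 1 kb of protein-coding boundaries, so both shares differ in scope.

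**Figure D2:**
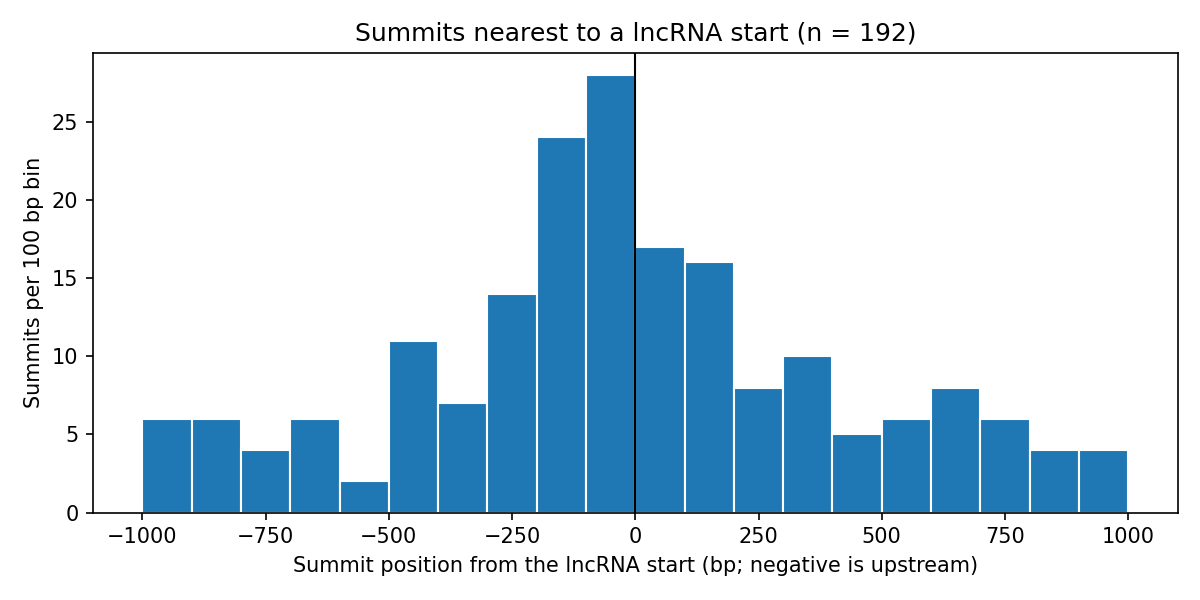
Number of summits per 100 bp bin (vertical axis) by position from the lncRNA start (horizontal axis, bp, upstream negative), for the 192 summits nearest to a start. The counts are highest just upstream of the start and fall off on both sides.

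Density around the starts showed the same. Within 100 bp of a lncRNA start there were 45 summits at 27.3 per Mb (interval 19.9 to 36.5), 13.8 times the density away from boundaries. From 100 to 250 bp it was 22.4 per Mb, from 250 to 500 bp 10.5, from 500 bp to 1 kb 6.67, and from 5 to 10 kb 3.55. Within 100 bp of a lncRNA end only 2 summits lay, at 1.10 per Mb (interval 0.133 to 3.97). Around the ends the density was 4.01 per Mb from 500 bp to 1 kb and 4.87 from 1 to 2 kb, with no maximum at the end itself. Protein-coding starts, for comparison, had 234.3 summits per Mb within 100 bp and 13.04 from 500 bp to 1 kb. At that larger distance lncRNA starts had 6.67, so the gap between both kinds of start was widest close to the start. The lncRNA values leave out summits and sequence within 1 kb of protein-coding boundaries, and the protein-coding values do not. The size of the gap therefore depends in part on the rule.

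**Figure D3:**
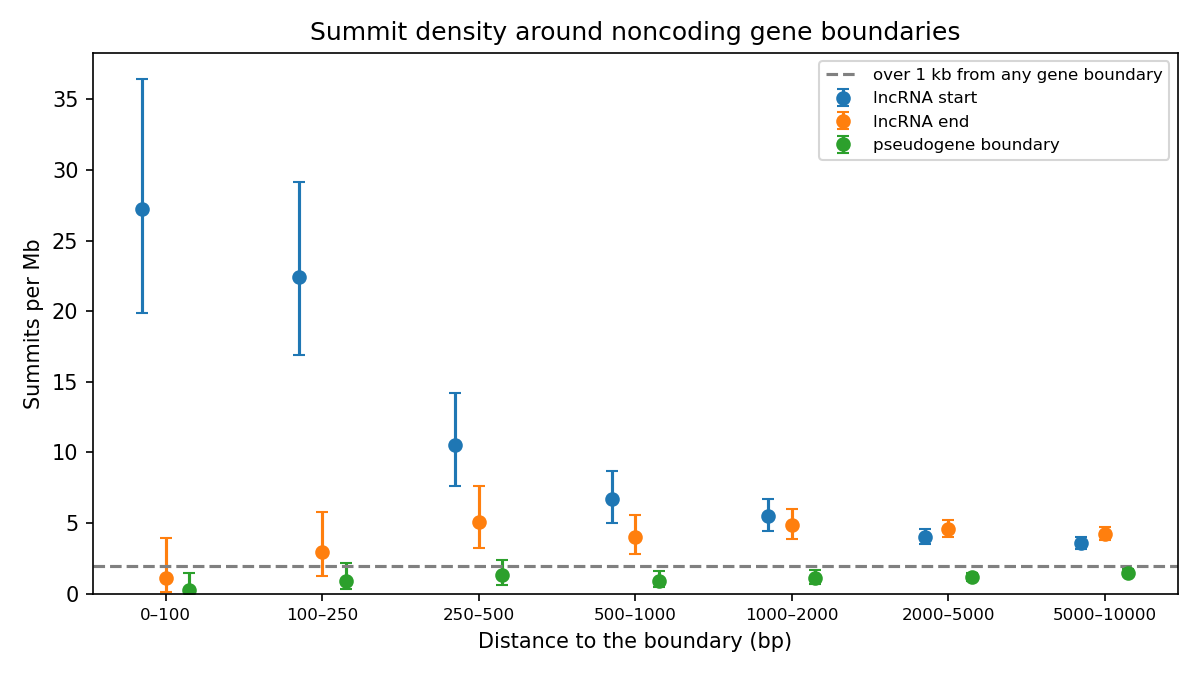
Summits per Mb (vertical axis) by distance to the boundary in bp (horizontal axis) for lncRNA starts, lncRNA ends and pseudogene boundaries, with exact 95% Poisson intervals; the dashed line is the density over 1 kb from any gene boundary. Starts fall from 27.3 per Mb within 100 bp to 3.55 at 5 to 10 kb, ends stay between 1.10 and 5.10, and pseudogene boundaries stay between 0.261 and 1.48.

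The median score was 15.9 at lncRNA starts and 14.5 at lncRNA ends. Of the 12 highest-scoring summits, 10 had a lncRNA as nearest noncoding gene, near the 81.4% of all 381. All 9 of these with known strand were nearest to its start, against 76.8% of all such summits. The highest of them scored 770.04 (chromosome 13, position 58113454) and ranked 13 of all placed summits. It lay 246 bp upstream of Gm52040 and 484 bp from a boundary of Gm33389, inside Klhl3, a gene for an adaptor of a ubiquitin ligase. An internal start of Klhl3, on the strand opposite to Gm52040, was 193 bp away. Next came Gm42322 with a summit 305 bp inside the gene (chromosome 4, position 133440061, score 354.9). Gm16537 had a summit of score 285.7 at position 99723802 of chromosome 15, inside Gpd1, which encodes a glycerol-3-phosphate dehydrogenase.

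The summit at Gm14616 (chromosome 2, position 174855631, score 260.2) lay 273 bp upstream of the gene and 71589 bp from Edn3, which encodes the peptide endothelin 3. Gm46941 (chromosome 5, position 112271138) had a score of 215.1 and lay near Crybb1, a lens crystallin gene. At 4930568G15Rik the summit was 130 bp upstream (chromosome 1, position 165092060, score 180.997), with Tbx19, a transcription factor gene of pituitary corticotrophs, at 45774 bp. Gm52506 had a summit 32 bp inside the gene (chromosome 2, position 27573226, score 116.3). Gm26615 (chromosome 4, position 133086182) had a score of 109.4, and its strand is not in the tables used here. Gm40716, whose CpG-rich promoter is printed above, had its summit 55 bp upstream at position 80475435 of chromosome 10. Onecut3, a transcription factor gene of the ONECUT family, was the nearest protein-coding gene there, at 19471 bp.

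A single lncRNA had a summit of at least 20 at each of its ends. At 3930402G23Rik on chromosome 8, a summit of score 117.3 lay 374 bp upstream of the start (position 10928831) and another of score 55.3 lay 347 bp from the end (position 10924774). The nearest protein-coding gene was Irs2, an adaptor of insulin signalling, at 55850 bp from the first. Outside that limit, and named after their values were seen, Gm39478, inside Septin9, had scores of 10.4 at its start and 94.2 near its end, and Gm52067 had 8.75 at its start and 43.96 near its end. No noncoding gene had 3 or more of the 381 summits.

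Scores of the 381 summits ran from 2.06 to 770.04 with a median of 15.2 (95% binomial interval 13.03 to 18.2) and quartiles of 8.75 and 29.7. The median of all placed summits was 13.7, that of summits at protein-coding boundaries 12.5 (interval 11.99 to 13.03) and that of summits over 1 kb from any boundary 14.3. Scores of 100 or more were found at 13 of the 381, 3.41% (Wilson interval 2.00% to 5.75%), against 5.08% of all placed summits, and 27, 7.09%, were under 5, against 9.77%. By biotype the medians were 15.3 for lncRNA, 18.2 for pseudogene, 18.3 for miRNA, 11.6 for snRNA and 21.1 for tRNA summits. The ranges overlapped widely, and these medians rest on 12 to 27 summits outside the lncRNAs.

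**Figure D4:**
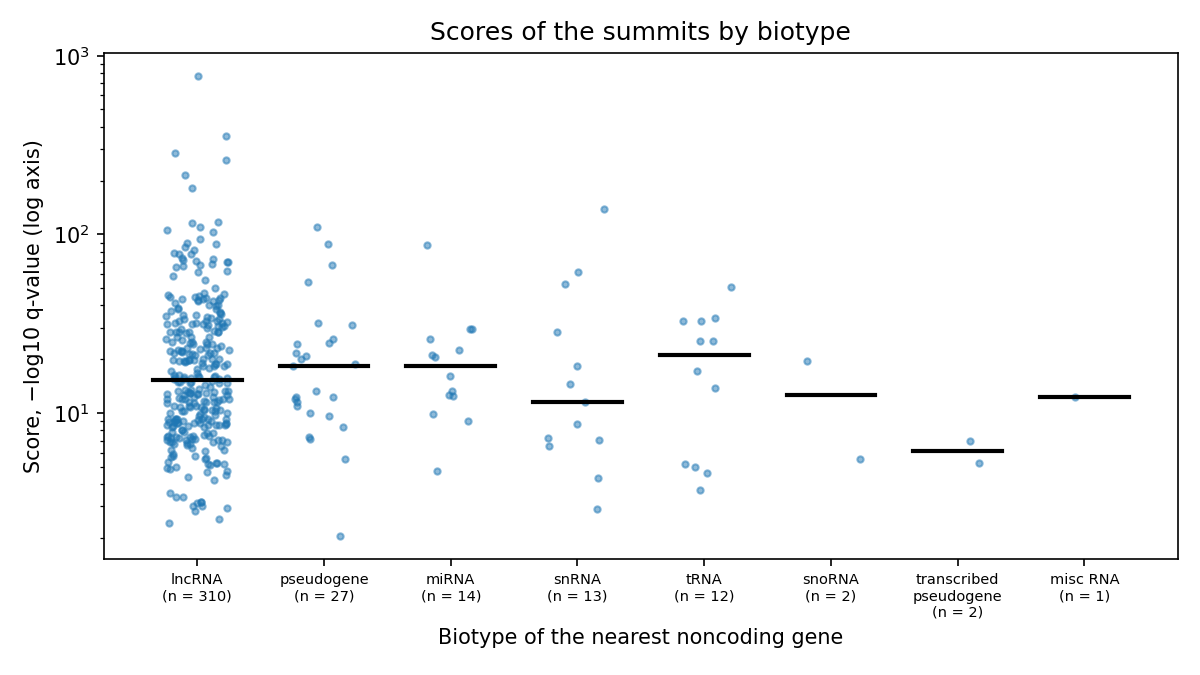
Score of each of the 381 summits (vertical axis, −log10 q-value on a log scale) by the biotype of the nearest noncoding gene (horizontal axis); points are summits and bars medians. The ranges of all biotypes with over 10 summits overlap, with medians from 11.6 to 21.1.

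Values at the edges of the rule were as follows. The 28 summits 900 to 1000 bp from the noncoding boundary had a median score of 11.6, and the 20 just outside, at 1000 to 1100 bp, 17.4. The 4 summits 1000 to 1100 bp from a protein-coding boundary had a median of 18.2, and the 8 left out at 900 to 1000 bp one of 7.70.

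Some of the summits lay inside protein-coding genes or close to a start within them. Inside a protein-coding gene body were 138 of 381, 36.2% (Wilson interval 31.6% to 41.2%), against 57.1% of the summits over 1 kb from any boundary (interval 55.7% to 58.5%). The sequence differed in the same direction. At noncoding boundaries 21.5 of 83.8 Mb lay inside protein-coding genes, against 965 of 2450 Mb away from boundaries. Of the 112 lncRNA summits among them, strand could be resolved for 86, and in 81 (94.2%) the lncRNA was on the strand opposite to its host. Of all lncRNA starts inside protein-coding genes and over 1 kb from protein-coding boundaries, 90.1% were on the opposite strand. The share near summits was close to that of the annotation. The 86 include summits nearest to a lncRNA end and the 90.1% covers starts only, so both shares differ in scope. Of the 381, 40 lay 1 to 2 kb from a protein-coding boundary (10.5%), against 6.11% of the summits over 1 kb from any boundary. Over 100 kb away were 42 of the 381, against 838 of the 4844 (17.3%).

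Protein-coding genes can have further transcript starts inside the span that sets their boundaries. Starts were known for 17274 of 21631 protein-coding genes, and the gaps are not limited to chromosome 18. For the summit at LOC115487608, inside Ppp1r42 on chromosome 1, the nearest known start was 8136771 bp away. Unknown starts could not be counted, so the shares below may be too low. Of the 375 summits outside chromosome 18, for which the promoter table has no entry, 32 (8.53%, Wilson interval 6.11% to 11.8%) lay within 1 kb of such a start, against 4.66% of summits over 1 kb from any boundary (218 of 4681, interval 4.09% to 5.30%). In 23 of the 32 the nearest noncoding gene was a lncRNA with its start nearest to the summit and on the opposite strand, so that both genes pointed away from each other or overlapped there. Without summits and sequence within 1 kb of known protein-coding starts, the density within 100 bp of lncRNA starts was 22.4 per Mb (interval 15.7 to 31.0).

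Transcription factors of islet cells were among these pairs, which were named after their values were seen. Gm20554 starts beside Irx2, an Iroquois homeobox gene used as an alpha cell marker. Their summit (chromosome 13, position 72628729, score 19.7) lay 165 bp from the start of Gm20554 and 91 bp from a start of Irx2. The lncRNA 6430503K07Rik starts beside Nkx2-2 itself. Its summit (chromosome 2, position 147187353, score 15.4) lay 71 bp from the lncRNA start and 951 bp from a start of Nkx2-2. Crnde is not one of the 32 but starts beside another Iroquois gene, Irx5. Its summit lay 181 bp upstream of its start and 1495 bp from Irx5 (chromosome 8, position 92356301, score 9.03). Further pairs with the opposite orientation were Gm40345 with Por (score 31.3), Gm41167 with Tnfrsf19 (29.4) and 2700012I20Rik with Sin3a, the gene of a corepressor scaffold (8.37).

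The window of Gm20554 is printed because it is shared with Irx2. It is chr13:72628515-72628814 on the minus strand, has 24 CpG and its summit at base 86, and its only NKX2 core, in capitals, lies 73 bp from the summit.
Gm20554: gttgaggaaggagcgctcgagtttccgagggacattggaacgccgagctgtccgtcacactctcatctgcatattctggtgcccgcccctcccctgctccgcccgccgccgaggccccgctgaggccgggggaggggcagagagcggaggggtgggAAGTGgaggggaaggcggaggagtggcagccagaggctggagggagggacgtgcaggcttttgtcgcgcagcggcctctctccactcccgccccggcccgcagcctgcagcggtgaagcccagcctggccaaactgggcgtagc

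Promoter windows could be read for 71 of the 381 summits, those that fell inside 74 windows of lncRNA genes. At least 10 CpG were found in 42 of the 74, 56.8% (Wilson interval 45.4% to 67.4%), against 19.1% of all 11574 lncRNA windows. Protein-coding windows had 57.3%, and those with a summit inside 94.1%. With summits near protein-coding boundaries included, 136 of 173 lncRNA windows with a summit inside had at least 10 CpG. That is 78.6% (Wilson interval 71.9% to 84.1%), the share to set beside the 94.1%. The median GC content was 56.8% in the 74 windows and 48.3% in all lncRNA windows. Summits in windows with at least 10 CpG had a median score of 15.9 (n = 40), and those in windows with fewer had 12.7 (n = 31). The highest score of each group was 180.997 and 770.04.

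Motif letters were searched on both strands of the same windows. AAGTG, the NKX2 core, occurred in 31 of the 74 windows, 41.9% (Wilson interval 31.3% to 53.3%), and in 48.4% of all lncRNA windows. The longer form TNAAGTG, which contains the core, occurred in 5, 6.76% (interval 2.92% to 14.9%), and in 12.9% of all lncRNA windows. CACCC, the core bound by KLF factors, one of which, KLF4, is named in the study's title, occurred in 45, 60.8% (interval 49.4% to 71.1%), and in 53.8% of all. Each interval included the share of all lncRNA windows. With summits near protein-coding boundaries included, there were 173 windows, and their intervals did not include it. AAGTG occurred in 37.6% of these (interval 30.7% to 45.0%) and TNAAGTG in 5.78% (interval 3.17% to 10.3%), both lower shares. CACCC occurred in 63.0% (interval 55.6% to 69.8%), a higher share. These windows also differed in CpG content, and the differences in motifs were not tested. Of the 71 summits, 29 had an AAGTG in the window, 15 had one within 50 bp and 7 within 20 bp. The matching shares for other positions were not worked out. These counts therefore do not show that cores lie nearer to the summits than elsewhere. Windows end 50 bases inside the gene, so sequence around many summits was cut off, and no test was made.

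**Figure D5:**
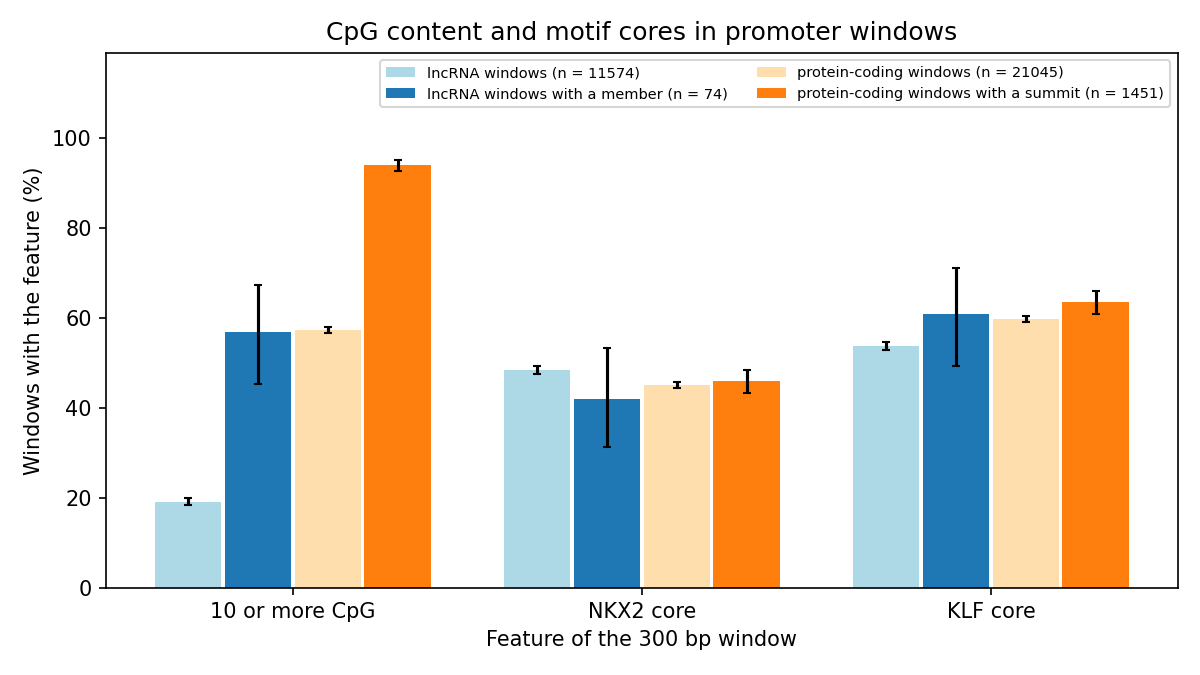
Share of 300 bp promoter windows in percent (vertical axis) with at least 10 CpG, with AAGTG (NKX2 core) and with CACCC (KLF core), for all lncRNA windows, lncRNA windows holding one of the 381 summits, all protein-coding windows and those holding a summit; bars are shares and error bars 95% Wilson intervals. CpG-rich windows make up 56.8% of lncRNA windows with such a summit and 19.1% of all lncRNA windows. The same shares are 41.9% and 48.4% for AAGTG and 60.8% and 53.8% for CACCC. Not drawn are the shares for lncRNA windows with any summit, 78.6% for CpG, 37.6% for AAGTG and 63.0% for CACCC.

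Lists of known noncoding genes were then looked up. Of 20 lncRNAs known from islets or endocrine cells, 16 were in the gene table and 3 had one of the 381 summits (18.8%), all with scores of at most 10.4. Of all lncRNA genes 2.51% had one. The list was chosen with earlier results of these data known, so its share is a description. Neat1, the scaffold RNA of nuclear paraspeckles, had a summit at 104 bp from a boundary (chromosome 19, position 5845584, score 10.4). Paupar, made upstream of the islet transcription factor gene Pax6, had one at 835 bp (chromosome 2, position 105662178, score 6.15). Malat1, an abundant nuclear RNA, had one 695 bp from its end (chromosome 19, position 5794995, score 3.001), where the small cytoplasmic RNA Mascrna is cut from its transcript. Gas5 had a summit only near a protein-coding boundary.

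None of 34 miRNAs known from islets had one of the 381 summits, which allows a share of up to 8.82%. Mir375, a miRNA abundant in islets, had a summit 489 bp from its hairpin (chromosome 1, position 74901210, score 19.7), which a protein-coding boundary within 1 kb kept out. Of 18 snoRNA host genes none had one, which allows up to 16.7%, and of 14 miRNA host genes 1 did, Mir22hg, 193 bp from its start with a score of 7.47. Among 221 opposite-strand genes 3 had one, 1.36%, against 1.41% of all noncoding genes and 2.51% of lncRNA genes. These were Rptoros inside Rptor (score 44.4), Bcas3os2 (42.1) and Ttc39aos1 (19.8), and all 3 summits lay nearest to the start. With summits near protein-coding boundaries included, 12 of the 221 had one, 5.43%. The share was 2.51% of all noncoding genes and 4.46% of lncRNA genes, so it was near that of lncRNA genes.

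A few other lncRNAs with given names were picked after their values were seen. Lncpint, a lncRNA induced by the tumour suppressor p53, had 2 summits at its start, 20 bp upstream with a score of 16.4 and 748 bp inside with a score of 11.3. Lockd, which lies downstream of the cell cycle inhibitor gene Cdkn1b, had a summit of score 23.2 at 435 bp upstream of its start. Dancr had a summit of score 2.56 at 83 bp inside its start, with the snoRNA gene Snora26 at 387 bp.

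For the 13 miRNA genes, all 20 mature sequences were read from RefSeq (GRCm38.p6). Those printed are of the gene with the highest score, the gene with a pair of summits, the gene with the closest summit, the Mir344 pair and Mir210, a known miRNA with a score of 20.7, 5′ to 3′, with the seed (bases 2 to 8) in capitals. The 20 had 18 distinct seeds, since among them only Mir344 and Mir344c share theirs. Mir6347, the Mir344 pair and Mir210 were picked after their values were seen.
mmu-miR-3109-3p: uAGGGCCAucucauccagaua
mmu-miR-6353: uAGCAGCAcguauuuauccuauu
mmu-miR-6347: cAGUGCGGcuggcuggagaugc
mmu-miR-344-3p: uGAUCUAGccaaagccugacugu
mmu-miR-344c-3p: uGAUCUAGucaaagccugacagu
mmu-miR-210-3p: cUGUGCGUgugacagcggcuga

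Mir3109, inside Anxa2, had the highest score of the miRNA summits, 87.7, at 941 bp from the hairpin (chromosome 9, position 69457972). Mir6353, inside Pid1, had 2 summits of 29.7 and 12.5, at 917 and 50 bp. Its mature seed is shared by 10 mouse miRNAs, among them miR-15a-5p and miR-16-5p. Mir6347 had the closest summit, 6 bp upstream of the hairpin, with a score of 9.02 (chromosome 1, position 167290119). Mir344 and Mir344c, of 1 cluster on chromosome 7, had summits 78 and 159 bp upstream with scores of 13.3 and 16.02, and they share the 3p seed with each other alone. The summit at Mir210, a miRNA induced by low oxygen, was 753 bp upstream (score 20.7). Mir5126, Mir667 and Mir3971 had scores of 29.5, 25.96 and 22.7. In all, 8 of 14 miRNA summits were on the upstream side of the hairpin, 57.1% (Wilson interval 32.6% to 78.6%), and 9 of 14 lay inside a protein-coding gene. The share of all miRNA genes that lie inside protein-coding genes was not worked out.

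The 12 tRNA summits lay near 16 tRNA genes. The highest score, 50.99, was at n-TSaga9, a serine tRNA gene (chromosome 4, position 10875065, at 920 bp). n-TNgtt14, an asparagine tRNA gene, had a summit of score 34.0 at 261 bp. A summit of score 32.8 on chromosome 2 (position 122377559) lay near n-THgtg3 and n-THgtg5, both histidine tRNA genes, at 125 and 409 bp. Closest among the higher scores was n-TCgca57, a cysteine tRNA gene, at 19 bp with a score of 32.8 (chromosome 6, position 47979087). Within 100 bp of a tRNA boundary 3 summits lay, the others at n-TAagc16 (score 4.999) and n-TLcag9 (4.64), both named after their values were seen. Some of the 12 summits also lay near a lncRNA boundary, so the 2 biotypes cannot be told apart there. The summit at n-TNgtt14 was 347 bp from 2310047D07Rik and that at n-TAagc16 110 bp from Gm32525. The summit at n-TRccg1 was 443 bp from Gm39424 and that at n-TTagt9 182 bp from Gm38989. These pairs were named after their values were seen. Only 1 of the 12 was inside a protein-coding gene. The matching share of all tRNA genes was not worked out.

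Among snRNA genes the highest scores were 138.1 at Gm24041 inside Tmem65 (chromosome 15, position 58819092), 61.8 at LOC115488883 inside Ddr1 and 52.97 at LOC115487300 inside Cdon. Of the 4 Rnu3b genes, copies of the U3 RNA gene inside Tex14 on chromosome 11, 3 had a summit, with scores of 30.9, 8.66 and 4.31. The first of these summits also lay within 1 kb of the snRNA gene Gm23137. Gm25939 had summits of 11.6 and 6.54 on either side, at 259 and 260 bp. Gm25939 and the lower-scoring Rnu3b copies were named after their values were seen. The snoRNA summits were at LOC115488220 (19.6), LOC115487655 (5.54) and Snora26.

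Pseudogene summits seldom lay close to the boundary, with 1 of 27 within 100 bp, at Gm14281 (45 bp, score 67.6), where the lncRNA 5330413P13Rik also ends or starts at 63 bp. The highest pseudogene scores were 110.4 at Gm29257 inside Mdm4, 88.2 at Gm26408 inside Rapgef4, 53.99 at Gm3436 inside Lipc and 31.8 at Gm31891. The summit at Gm29257 lay 22 bp from an internal start of Mdm4, a gene for an inhibitor of p53. Rn18s-rs5, a copy of the 18S ribosomal RNA gene on chromosome 17, had a summit on either side, with scores of 20.7 and 20.1 at positions 39846220 and 39848476. The transcribed pseudogenes 4632415L05Rik and BC025920 had scores of 6.99 and 5.26, and the miscellaneous RNA gene Gm4633, inside Cd47, had 12.3. tRNA, snRNA, ribosomal RNA genes and pseudogenes have near-identical copies, and how reads that match several copies were assigned is not given in the sources used here, so summits at these genes are uncertain in position.

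Other summits were nearby about as often as for summits away from boundaries. Another summit lay within 10 kb of 97 of the 381, 25.5% (Wilson interval 21.3% to 30.1%), against 23.0% of those over 1 kb from any boundary. The share was 21.1% of all placed summits and 16.2% of summits at protein-coding boundaries (interval 14.7% to 17.9%). By chromosome, the 381 made up between 2.83% of the summits on chromosome 18 and 7.37% on chromosome 9. Chromosome 14 held 5 of them and the X chromosome 2.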

How the data were processed

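NKX2.2 ChIP and input were each sequenced in 2 samples of alphaTC6 cells, grouped by sample titles. The authors deposited 1 summit list with a score per peak, taken as −log10 of the MACS2 q-value from the usual format of such lists and the lowest values. MACS2 peak calling is stated per the labels' design text. FastQC, Bowtie2, MACS2 and the build mm10 are named in the submitters' processing notes, without versions. Read filters and whether replicates were pooled are not given in the sources used here. The list has no value per library, so replicate labels could not be used.

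Summit positions are the BED start plus 1. Gene ends and biotypes came from the RefSeq table of GRCm38.p6, the assembly of mm10, with 21631 protein-coding and 27923 noncoding genes on chromosomes 1 to 19 and X. Strand came from the promoter and miRNA tables and covers 9520 of 12697 lncRNA genes. A summit was assigned to its nearest noncoding gene. Densities divide summits by the bases over 1 kb from protein-coding boundaries, between the outermost genes or summits of each chromosome. Those around protein-coding starts are the exception and use all placed summits, with no sequence left out. Shares have 95% Wilson intervals, densities exact Poisson intervals and medians binomial intervals. Where no gene of a set had a summit, the share allowed is 3 divided by the number of genes. For the V segment genes that is lower than the upper Wilson limit. No test across summits was made. The members, lists and rules were chosen with earlier results of these data known. Named genes are those of the 12 highest-scoring summits, the 5 genes of each other biotype with the highest-scoring summits, genes with 3 or more summits or with summits of at least 20 at both ends, and the listed genes with a summit, unless the text says otherwise. Alternatives were score minimums of 5 and 10, distances of 500 bp and 2 kb, no pseudogenes, and merging within 500 bp. The code was tested on simulated positions. Tables were handled with pandas 2.3.3 and numpy 2.4.6 under Python 3.11.15, intervals came from scipy 1.17.1 and statsmodels 0.14.6, and plots from matplotlib 3.10.9.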

Additional observations from a re-analysis of the deposited data

Results flagged for a closer look

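Summits also lay outside the chromosomes used: 4 were on contigs that are not part of chromosomes 1 to 19 and X, with scores from 3.48 to 109.8. They were not compared with gene boundaries.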

How the results depend on the processing

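No paired analysis was possible because replicates have no separate values in the summit list, so leaving out single replicates could not be done either. The number of summits ran from 259 at a score minimum of 10 to 534 at a distance of 2 kb. Their share of placed summits was 3.77% with a distance of 500 bp and 7.24% with 2 kb, by construction of the wider or narrower window. The lncRNA share was 88.1% without pseudogene boundaries, since these summits leave the total, and stayed between 80.8% and 82.0% otherwise. The median score was 22.9 at a score minimum of 10, which removes low scores, and stayed between 15.2 and 16.6 otherwise. Leaving out summits within 1 kb of a known protein-coding start, an alternative chosen after seeing the data, gave 30.4% inside protein-coding genes. These starts lie mostly inside genes. The other alternatives gave 35.6% to 37.4%. The start share of lncRNA summits, whose alternatives were also added after seeing the data, ran from 70.1% at 2 kb to 82.4% at 500 bp. A missing summit shows only that no peak was called at an unknown depth.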
